A study of Ovis aries with 19 samples.

Results

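The 69 genes described here encode heat shock proteins, the J-proteins that work with them, and their nearest regulators. They were chosen by name. The rule took table entries whose symbol begins with HSPA, HSPB, HSPD, HSPE, HSPH or HSP90A, or with DNAJA, DNAJB or DNAJC and a digit, together with BAG1 to BAG6, HSF1 and HSF2. It left out HSPA5, DNAJB9, DNAJB11 and DNAJC3 of the endoplasmic reticulum, and required a mean normalized read count of at least 10 in liver or in muscle. Of 76 matching names, 69 reached that mean, out of 28524 entries in the table and 14909 that reached it in either tissue. The 7 that did not were DNAJB3, DNAJB7, DNAJB8, DNAJB13, DNAJC5B, DNAJC5G and HSPB9. None of the 76 names began with HSPE, so HSPE1 was not analysed here. Of the 69, 67 were measured well enough to test in liver (all but HSPB3 and HSPB7), 66 in muscle (all but DNAJA1, DNAJC6 and DNAJC22) and 64 in both. The label of the set, cytosolic heat shock proteins, did not hold for every member: HSPA9, HSPD1, DNAJA3, DNAJC11, DNAJC15, DNAJC19 and DNAJC30 are known as mitochondrial proteins, and HSPA13, DNAJB12, DNAJB14, DNAJC1 and DNAJC10 as proteins of the endoplasmic reticulum.

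The samples were liver and muscle of female sheep. Control animals were compared with animals that had been exposed to excess testosterone before birth, which the labels give as prenatal T-treatment, without dose or timing in the sources used here. Liver came from control sheep 98, 131, 179 and 201 and treated sheep 48, 63, 185, 233 and 255, and muscle from the same animals and control sheep 132. Values below follow that order of sheep, with 132 placed between 131 and 179 among the control muscles. Each library was 1 animal, and the labels name neither the muscle nor the age of the sheep. Libraries held between 10236610 and 16046301 reads in liver and between 8455563 and 14331578 in muscle. ALB, the albumin gene, had at least 112956 normalized counts in every liver library and ACTA1, the actin of skeletal muscle, at least 154279 in every muscle library, so the tissue labels matched these markers.

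Heat shock proteins keep other proteins folded. HSP70 proteins bind and release unfolded stretches in a cycle driven by ATP, which J-proteins start. HSP110 proteins, HSPBP1 and some BAG proteins end it by exchanging the nucleotide, while HSP90 proteins finish the folding of receptors and kinases. Small heat shock proteins hold unfolded proteins without ATP and are known for their abundance in muscle, where HSPB8 and BAG3 help to clear damaged proteins of the contractile apparatus. HSF1 switches many of these genes on under stress.

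The first question was how the set was spread over the tissues of control sheep. For this, the reads behind the deposited values were converted to CPM (reads scaled to a common library total) with 1 scaling (TMM, a trimmed mean of ratios) over all 9 control libraries, because the deposited values were scaled within each tissue. A gene was called at an adjusted p under 0.05 by limma and a difference of at least 2-fold on the log2(CPM + 1) scale. Of the 69 genes, 36 were called, 29 of them higher in muscle and 7 higher in liver. Among all 14909 genes tested, 22.1% were called higher in muscle and 26.5% higher in liver. The median difference of muscle minus liver was 0.59 on the log2 scale for the set and -0.07 for all genes. For 5 of the calls the direction followed from the rule, since these genes reached the mean of 10 in 1 tissue only: HSPB3 and HSPB7 in muscle, and DNAJC22, DNAJC6 and DNAJA1 in liver. Of the 64 members that reached it in both tissues, 27 were called higher in muscle and 4 in liver. Of the 11697 genes that did so, 21.6% were called higher in muscle and another 21.6% higher in liver. In bulk tissue, a larger share of cells that express a gene and more RNA of it per cell cannot be told apart.

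**Figure D1:**
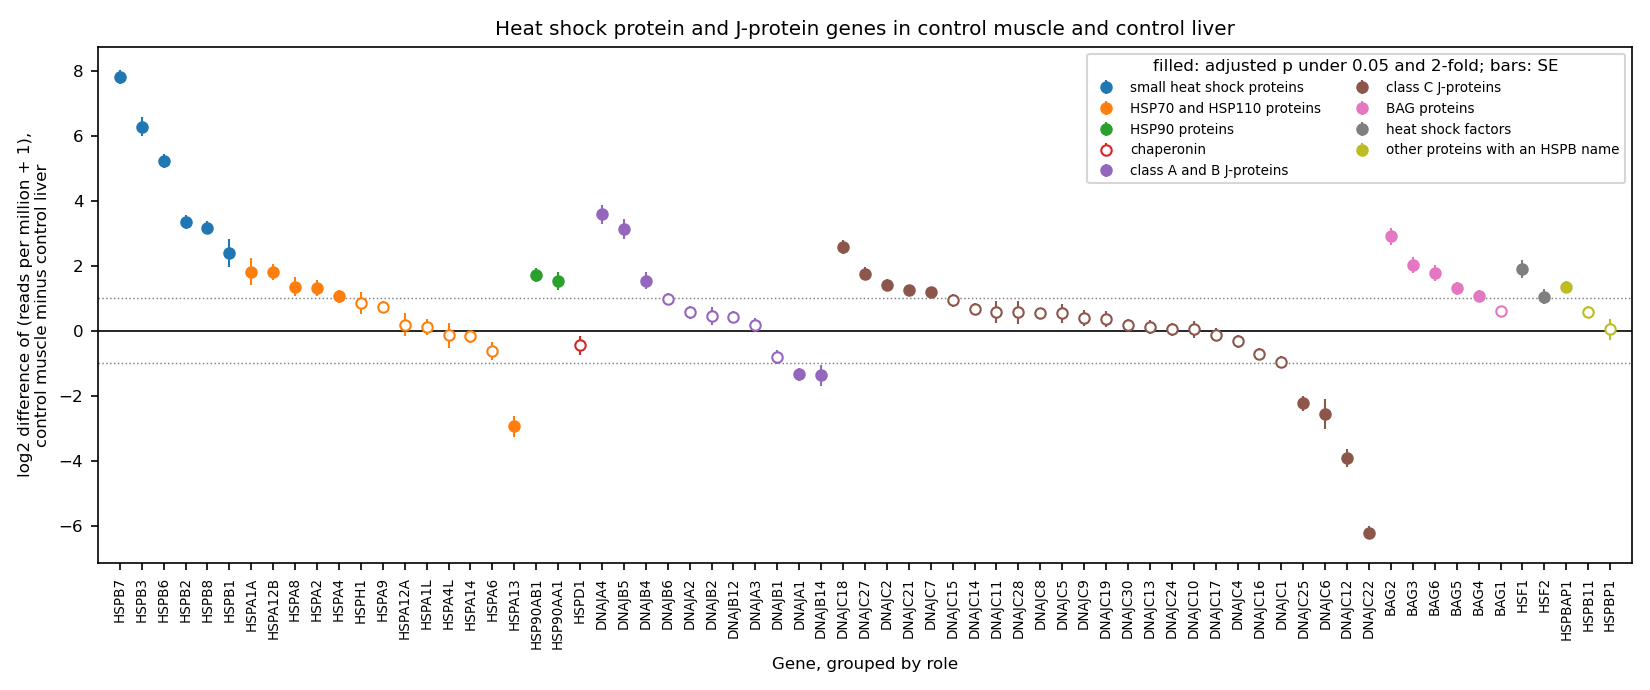
Difference of control muscle (n = 5) minus control liver (n = 4) for each of the 69 genes on the log2(CPM + 1) scale, grouped by role, with standard errors. Dotted lines mark a 2-fold difference. All 6 small heat shock protein genes, of which HSPB3 and HSPB7 were chosen through muscle alone, lie above it, and DNAJC22, chosen through liver alone, and DNAJC12 lie lowest.

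All 4 small heat shock proteins that reached the mean in both tissues, HSPB1, HSPB2, HSPB6 and HSPB8, were called higher in muscle, with a median difference of 3.26. Of all genes that reached it in both tissues, 21.6% were called higher in muscle. HSPB3 and HSPB7 entered the set through muscle alone, so their values are given as a description. HSPB7, a small heat shock protein of striated muscle, had 14695 reads in the 5 control muscles and 7 in the 4 control livers, which after scaling was 1896 times as many. Counting error alone allows a ratio from 920 to 4716 (exact 95% limits). HSPB3, known to form complexes with HSPB2, had 5046 reads in muscle and 3 in liver, all of the latter from sheep 201, 1519 times as many, with exact limits of 519 and 7367. The liver library of sheep 201 had 20704 genes detected, against 16852 to 18289 in the other liver libraries. In CPM, HSPB7 had 324, 347, 239.6, 179.7 and 217 in control muscle and 0.123, 0.178, 0.0758 and 0.217 in control liver. HSPB3 had 68.9, 158, 95.8, 81.2 and 44.6 in muscle and 0, 0, 0 and 0.326 in liver. Both were close to 0 in every control liver.

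HSPB6, which is also known as HSP20 and acts on actin and contraction, had 396, 398, 239, 245 and 248 CPM in control muscle and 8.34, 7.49, 5.15 and 7.5 in control liver, a ratio of means of 42.8. HSPB2, the partner of HSPB3, had 41.3, 45.3, 32.5, 35.2 and 30.2 in muscle and 3.07, 2.85, 1.52 and 3.7 in liver, a ratio of 13.3. HSPB8 had 424, 624, 606, 588 and 616 in muscle and 80.7, 61.4, 59.8 and 50.5 in liver, a ratio of 9.06. HSPB1, or HSP27, the small heat shock protein that many tissues make, was the least unequal of the 6, with 651, 659, 1701, 537 and 789 in muscle and 174, 142, 63.6 and 321 in liver, a ratio of 4.95. Its ratio was 3.76 without sheep 132, the highest muscle, and 7.01 without sheep 201, the highest liver. No liver library reached the lowest muscle library for any of the 6 genes. The log2 differences of the 4 genes measured in both tissues ran from 2.39 ± 0.42 (SE) for HSPB1 to 5.21 ± 0.22 (SE) for HSPB6. The limma adjusted p-values of HSPB1 and HSPB6 were 0.000166 and 5.64e-11.

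**Figure D2:**
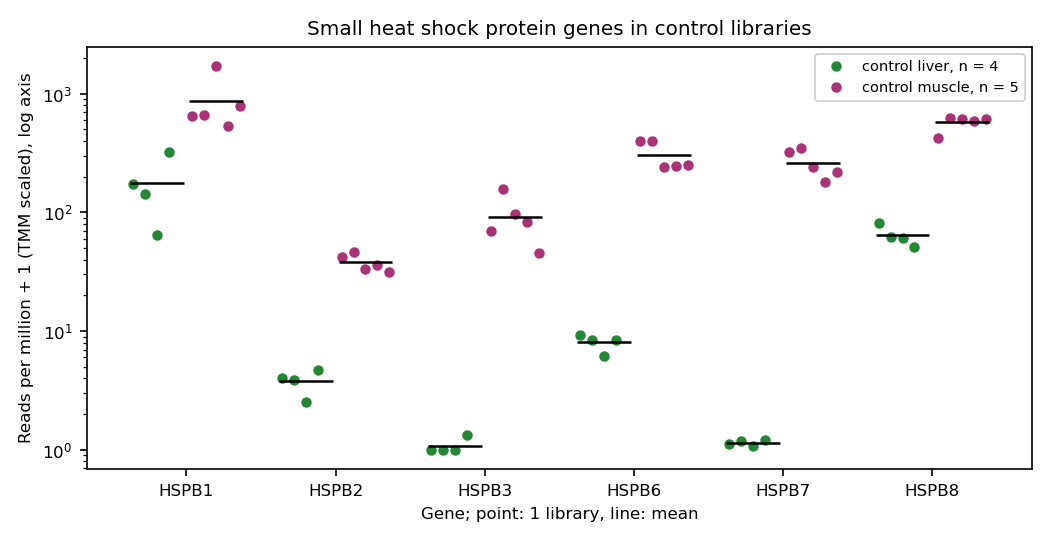
CPM plus 1 on a log axis for the 6 small heat shock protein genes in control liver (n = 4) and control muscle (n = 5), 1 point per library, with the mean as a line. The muscle points lie above the liver points for each gene, and HSPB3 and HSPB7 sit at the floor in liver.

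The BAG proteins had 5 of 6 called higher in muscle. Of all genes that reached the mean in both tissues, 21.6% were. BAG2, an inhibitor of the ubiquitin ligase that works with HSP70, had a ratio of means of 7.47, from 12.9 ± 5.86 (SD, n = 4) CPM in liver to 96.1 ± 13 (SD, n = 5) in muscle. BAG3, the partner of HSPB8, had 65.4 ± 20.9 (SD, n = 4) and 256 ± 40.7 (SD, n = 5), a ratio of 3.91. BAG6, which sorts misplaced membrane proteins, had a ratio of 3.31, BAG5 2.47 and BAG4 2.19. BAG1 differed by 0.59 ± 0.16 (SE) on the log2 scale with a limma adjusted p of 0.00392, short of the 2-fold limit. Both heat shock factors were called higher in muscle, beside the same 21.6% of all genes. HSF1, the main switch of the heat shock response, had 75.3, 57.7, 82.7, 71 and 65.9 CPM in muscle and 27.1, 15.9, 9.17 and 26.5 in liver. HSF2, its relative, had 29.7, 26.8, 24.6, 27.9 and 41.1 in muscle and 12.8, 17.4, 18 and 9.13 in liver. The HSF2 call and that of BAG4 were lost without sheep 201, at log2 differences of 0.74 and 0.92.

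Both HSP90 genes were called higher in muscle, where 21.6% of all genes that reached the mean in both tissues were. HSP90AA1, the inducible form, had 493 ± 88.7 (SD, n = 4) CPM in liver and 1510.5 ± 742 (SD, n = 5) in muscle, and HSP90AB1, the constitutive form, had 256 ± 64.5 (SD, n = 4) and 836 ± 158 (SD, n = 5). The ratio of means of HSP90AA1 was 3.06, and 2.4 without sheep 132, the highest muscle with 2826 CPM. Of the 13 HSP70 and HSP110 genes, 5 were called higher in muscle and 1 higher in liver. The share of all genes that reached the mean in both tissues was 21.6% in each direction. Those higher in muscle were HSPA1A, the stress-inducible HSP70, with a ratio of 3.61 that was 5.76 without sheep 98, HSPA12B, a divergent HSP70 of endothelial cells, with 3.61, HSPA8, the constitutive HSC70, with 2.47, HSPA2 with 2.99, and HSPA4, an HSP110 relative, with 2.1. The HSPA4 call was lost with the sheep as a block and without sheep 132 or sheep 201. HSPA13, which associates with the endoplasmic reticulum, was the member higher in liver, with 90.7, 79.2, 294 and 98.6 CPM in liver and 13.2, 14.4, 15.9, 16 and 14.3 in muscle, a ratio of 9.52. Sheep 179 was the highest liver, and without it the ratio was 6.19. HSPH1, HSPA9, HSPA12A, HSPA1L, HSPA4L, HSPA14 and HSPA6 were not called by limma, but edgeR and DESeq2 called HSPA6 higher in liver, and HSPH1 was called higher in muscle without sheep 98, without sheep 179 and on the deposited values. HSPD1, the mitochondrial chaperonin, was not called, with 12.3 ± 3.11 (SD, n = 4) in liver and 9.24 ± 4.6 (SD, n = 5) in muscle.

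J-proteins were split between the tissues. Of 11 class A and B J-proteins, which share the domain layout of bacterial DnaJ in full or in part, 3 were called higher in muscle and 2 in liver. Among all genes tested, the shares were 22.1% and 26.5%. DNAJA4 had 31.2, 56, 74.2, 23.5 and 38.1 CPM in muscle and 3.74, 2.5, 2.27 and 1.85 in liver, a ratio of 17.2. DNAJB5 had a ratio of 12.8 and DNAJB4 2.83. DNAJB14, of the endoplasmic reticulum membrane, was higher in liver, with 9.94, 8.02, 15.4 and 3.48 in liver and 2.38, 2.77, 1.77, 1.97 and 4.37 in muscle. DNAJA1, which entered the set through liver alone, was called higher there at low levels, 2.77 ± 0.71 (SD, n = 4) against 0.472 ± 0.202 (SD, n = 5). DNAJB6, which keeps proteins of the sarcomere from clumping, differed by 0.97 ± 0.19 (SE), just short of the 2-fold limit, with a limma adjusted p of 0.000466, and was called without sheep 131 or 179, without TMM and on the deposited values. DNAJA2, DNAJA3, DNAJB1, DNAJB2 and DNAJB12 were not called either.

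Class C J-proteins, a mixed class that shares the J domain alone, went both ways. Of 25, 5 were called higher in muscle and 4 in liver, and of the 23 that reached the mean in both tissues, 5 and 2. Of all genes that reached it in both tissues, 21.6% were called higher in muscle and another 21.6% higher in liver. The muscle calls of this class were near that share and the liver calls below it. DNAJC22 and DNAJC6 entered the set through liver alone, so their values are a description. DNAJC22 had 3817 reads in the 4 control livers and 1 in the 5 control muscles, 4227 times as many after scaling, with exact 95% limits of 758 and 167002. Its liver libraries had 69.15, 64.9, 100 and 69.81 CPM. DNAJC12, the partner of the enzymes that hydroxylate phenylalanine, tyrosine and tryptophan, had 43.6, 92.5, 137 and 91.2 in liver and 4.28, 5.45, 4.16, 5.25 and 4.16 in muscle, a ratio of 19.6. DNAJC25 had 46.5, 72.3, 107 and 47.2 in liver and 11.2, 11.6, 14.2, 14.8 and 12.7 in muscle, a ratio of 5.3. DNAJC6, or auxilin, which strips clathrin from vesicles, had 7.18, 2.67, 21 and 1.63 in liver and 0.159, 0, 0.0886, 0.0938 and 0.109 in muscle. Its control livers had 75.7, 29.1, 229.7 and 16.7 normalized counts and the treated livers 196, 148, 54.6, 79.2 and 2.17, the widest spread within groups of any member.

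The class C genes called higher in muscle were DNAJC18 with a ratio of 7.25, DNAJC27, which carries a Rab-like GTPase domain, with 3.9, DNAJC2, a ribosome-bound J-protein, with 2.84, DNAJC21, of the maturation of the large ribosomal subunit, with 2.42, and DNAJC7, which links HSP70 and HSP90, with 2.31. The other 16, DNAJC1, DNAJC4, DNAJC5, DNAJC8, DNAJC9, DNAJC10, DNAJC11, DNAJC13, DNAJC14, DNAJC15, DNAJC16, DNAJC17, DNAJC19, DNAJC24, DNAJC28 and DNAJC30, were not called by limma. DNAJC1 was called higher in liver with the sheep as a block, without sheep 132 or 201, with a mean of at least 50 and with median-of-ratios scaling, and DNAJC15 higher in muscle without sheep 179, without TMM and on the deposited values. Of 3 further genes with an HSPB name, HSPBAP1, a binding partner of HSPB1, was called higher in muscle, while HSPB11, which is a protein of cilia, and HSPBP1, an exchange factor of HSP70, were not called. Of the 36 calls, 29 held under each of the alternatives planned, and the 7 lost under at least 1 were HSPBAP1, DNAJA1, BAG4, HSPA2, HSPA4, HSF2 and DNAJB14. The ranges of the tissues overlapped for 3 called genes, HSPA8, HSPA1A and DNAJB14. HSPA1A, HSPA1L and HSPA6, and other genes with near-identical copies in mammalian genomes such as HSPA8, HSPD1, DNAJA1 and HSP90AB1, may share reads with those copies, so their levels are uncertain.

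The second question was whether prenatal testosterone changed these genes in the liver. No gene of the 67 tested passed the adjusted threshold by limma, edgeR or DESeq2, in a fit where 0.00733% of all 13640 genes passed by limma. At an unadjusted p under 0.05, each of the 3 tools gave 1 member. At an unadjusted p under 0.05, 1 of 67 was higher and 0 were lower, against 1.82% higher and 2.17% lower among all genes, 3.99% together. The median log2 fold change was 0.0024 for the set and 0.00315 for all genes, with 34 members above 0 and 33 below, where 49.6% of all genes lay below. For no member did the control and treated livers fail to overlap, where 1.54% of all genes showed no overlap (0.858% with treated above every control and 0.682% below). The count of 1 became 4 without control sheep 179, 2 when control 201 or either of treated 63 and 185 was left out, and 5 with array weights, and it was 1 without treated sheep 233, whose liver is described below. Shares of all genes under these alternatives are not given here.

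The gene at the unadjusted threshold was DNAJC12, the cochaperone of phenylalanine hydroxylase and its relatives. It had 459.8, 1005, 1504 and 934 normalized counts in control liver and 3426, 2085, 904, 2573 and 2919 in treated liver. Sheep 48 was highest, and treated sheep 185 lay below 3 of the 4 controls, so that the groups overlapped. Its means were 976 ± 427 (SD, n = 4) and 2381 ± 960.2 (SD, n = 5). On the log2 scale it was higher by 1.27 ± 0.42 (SE), for which limma gave an unadjusted p of 0.0097 and, after adjustment, 0.925. It stayed under an unadjusted p of 0.05 with each alternative and without each library in turn. In muscle, where its level was low, it had 53.6, 68.2, 51.7, 65 and 52 in control and 82.2, 53.4, 45.8, 55.4 and 41.7 in treated animals. The difference of muscle minus liver effects was -1.36 ± 0.46 (SE), with a limma unadjusted p of 0.00718 and an adjusted p of 0.857, so it did not pass either.

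Among liver J-proteins next in order of p, DNAJB5 had 32.3, 20.3, 14.1 and 25.6 in control and 36.6, 19.6, 61.8, 69.6 and 28.2 in treated liver, a log2 fold change of 0.78 ± 0.43 (SE). DNAJC15, a subunit of the mitochondrial import machinery, had 135, 214, 227 and 169 in controls and 140.3, 233, 73.2, 119.9 and 153 in treated animals. DNAJA1 had 26.5, 39.7, 21.6 and 30.05 in controls and 48.3, 42.4, 26.8, 54.6 and 33.6 in treated animals. In each of these the ranges of the groups overlapped. DNAJB1, the main partner of inducible HSP70, had 558, 435, 399.7 and 336 in control and 362, 354, 388, 653 and 395 in treated liver, which overlapped except for the high value of treated sheep 233.

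The HSP70 and HSP110 genes of liver had 8 members above 0 and 5 below, none at an unadjusted p under 0.05. HSPA8 had 1129.7, 644, 589 and 364 in control liver and 613, 406, 613, 1381 and 373 in treated liver. HSPH1, an exchange factor for HSP70, had 506, 512, 634 and 293 in controls and 522, 497, 491, 1282 and 233 in treated animals. The groups overlapped in both genes, with sheep 233 highest. HSPA9, the mitochondrial HSP70, had 4260.1, 3419.7, 3514 and 3049 in controls and 3081, 3371, 3407, 3589 and 3533 in treated animals, a log2 fold change of -0.06 ± 0.20 (SE). HSPA12A had 139.7, 60.05, 92.9 and 21.1 in controls and 44.8, 65.2, 22.7, 36.4 and 41.2 in treated animals, and HSPA4L, an HSP110 relative, 14.9, 24.2, 53.9 and 21.1 in controls and 57.8, 33.7, 15.5, 54.6 and 52 in treated animals. These last genes came first among the HSP70 and HSP110 genes in order of p, with unadjusted limma p-values of 0.2 and 0.236. HSPD1 had 166, 90.1, 145 and 124 in control and 89.6, 108, 125, 200.2 and 141 in treated liver, a log2 fold change of -0.00379.

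HSP90AA1 had 5120.2, 5633, 6467 and 3865 in control liver and 6433, 4939, 5469.8, 10364 and 5720.2 in treated liver. HSP90AB1 had 3551, 2347, 2122 and 2848 in controls and 2151, 2305, 3868, 4152 and 1636 in treated animals. Both ranges overlapped, and again sheep 233 was highest. Of the small heat shock proteins, HSPB1 had 1832, 1547, 696 and 3288 in controls and 1131, 1688, 3193, 2339 and 1106 in treated animals, HSPB6 87.9, 81.4, 56.4 and 76.8 in controls and 35.4, 54.3, 94.8, 43.9 and 72.6 in treated animals, and HSPB8 850.3, 667, 654 and 516 in controls and 724, 623, 886, 996 and 418 in treated animals. None separated the groups. BAG3 had 841, 377, 770.4 and 786 in control and 356, 474, 732, 1034 and 299 in treated liver, and BAG4, first of its class in order of p, had 135, 155, 129 and 99 in controls and 172, 165, 141, 148 and 215 in treated animals. HSF1 had 285, 172, 100.3 and 272 in controls and 93.2, 151, 287, 207 and 86.7 in treated animals, and HSF2 135, 189, 197 and 93.5 in controls and 129, 173, 123, 126 and 152 in treated animals. The log2 fold changes of these factors, -0.36 ± 0.41 (SE) and -0.08 ± 0.27 (SE), were smaller than their standard errors. Markers of other cells stood beside these liver values as follows. Of the adipocyte markers tested, 4 of 4 were below 0, 3 of them at an unadjusted p under 0.05, with summed counts of 219.8 to 519 in control and 102 to 302 in treated liver, and 6 of 6 markers of T and NK cells were above 0, 2 of them (CD5 and LCK) at an unadjusted p under 0.05, with 139 to 251 and 164 to 427. NEB, a skeletal muscle marker, was lower in treated liver without overlap, at 54.9 ± 11.9 (SD, n = 4) against 16.1 ± 7.30 (SD, n = 5). Hepatocyte markers had 4 of 5 above 0 and fibroblast markers 4 of 6. Macrophage, endothelial and smooth muscle markers each had 3 of 4 below 0. None in these 5 lists had an unadjusted p under 0.05. The part that any of these cells had in the chaperone values was not tested.

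**Figure D3:**
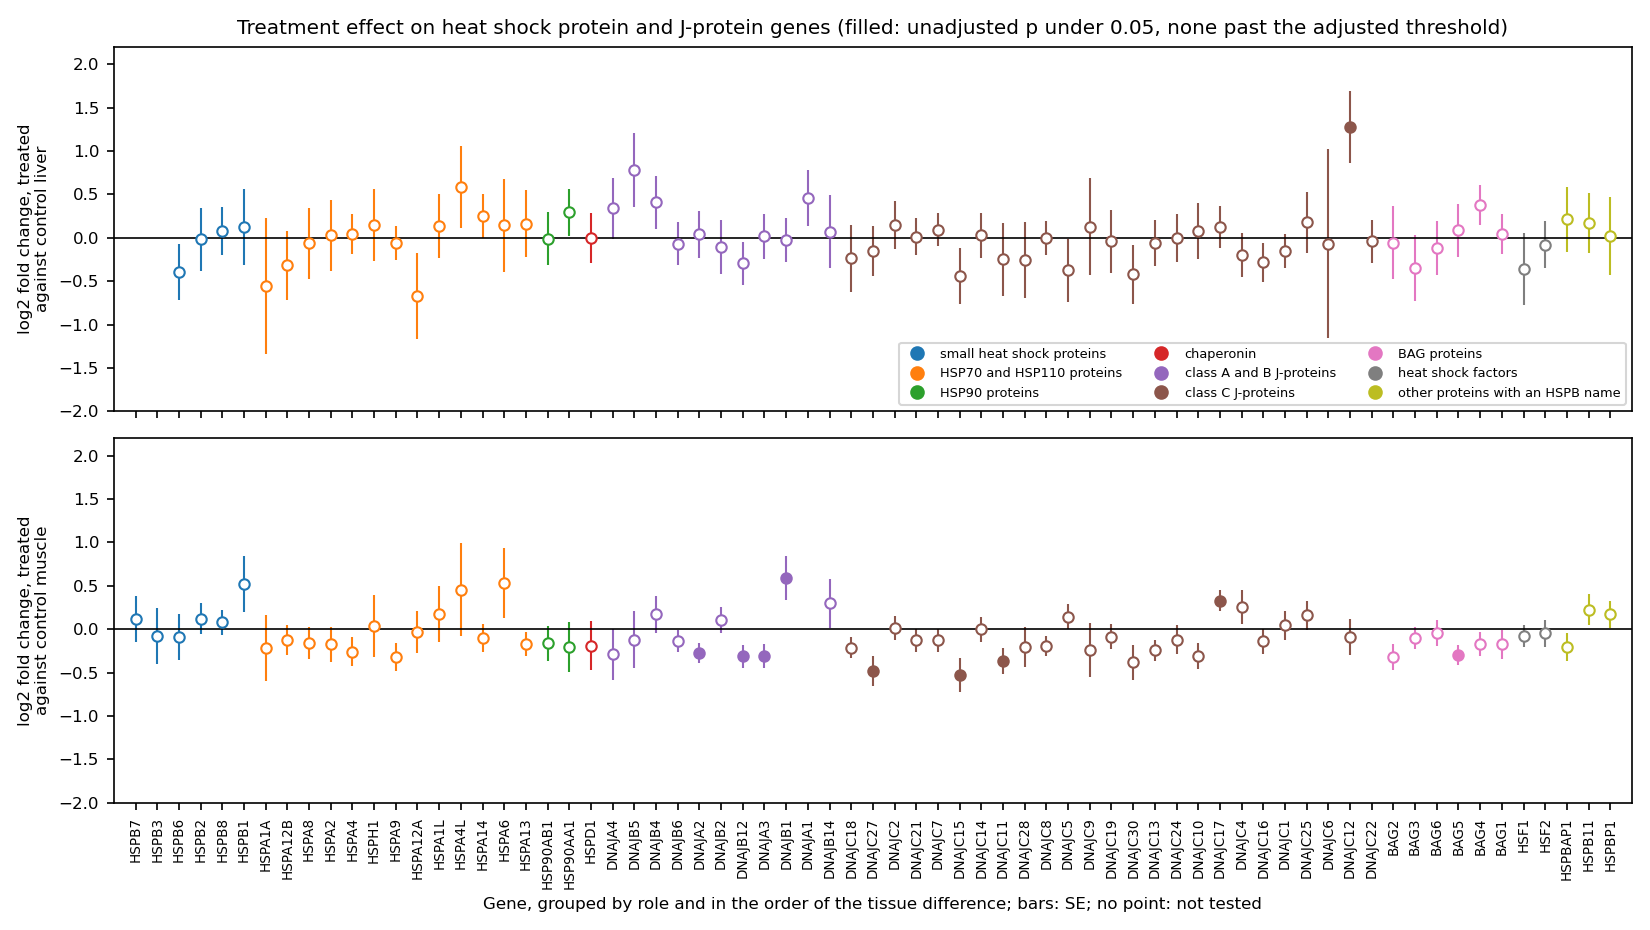
Log2 fold change of treated against control sheep, with standard errors, for the genes tested in liver (67, upper panel) and muscle (66, lower panel), grouped by role. Filled points have an unadjusted p under 0.05, which are DNAJC12 in liver and 9 genes in muscle, and none passed the adjusted threshold.

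In muscle the same question gave more genes at the unadjusted threshold, as it did for all genes. No member of the 66 tested passed the adjusted threshold by limma, edgeR or DESeq2, where 0.00771% of 12966 genes passed by limma. At an unadjusted p under 0.05, limma and DESeq2 gave 9 members each and edgeR 7. At an unadjusted p under 0.05, 2 members were higher and 7 lower, against 7.37% higher and 7% lower among all genes. The 9 together made 13.6% of the members, near the 14.4% of all genes. Of the 66, 46 had a log2 fold change below 0 (69.7%, against 51.6% of all genes), and the median was -0.12 for the set and -0.01 for all genes. For no member did control and treated muscles fail to overlap, where 3.29% of all genes showed no overlap (1.76% with treated above every control and 1.53% below). The 9 genes became 5 when control 98 or either of treated 48 and 185 was left out, 4 without control 179, and 2 with all 19 libraries in 1 fit. In the other direction, the share of 13.6% rose to 18.2% without treated sheep 255 and with array weights, and to 16.7% without treated sheep 63. The shares of all genes under these alternatives are not given here, so these shares have no background to be set against.

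Most of the 9 were J-proteins. DNAJC27 had 264, 244, 194, 187 and 199.6 normalized counts in control muscle and 150.2, 218, 115, 147 and 154 in treated muscle, a log2 fold change of -0.49 ± 0.17 (SE) and the smallest limma unadjusted p of the set in muscle, 0.0141. Of the 5 treated muscles, 4 lay below every control, with sheep 185 lowest, and sheep 63 lay within the control range. DNAJC15, of the mitochondrial import motor, had 496, 533, 387, 327 and 392 in controls and 323, 402, 193, 250.4 and 331 in treated animals, a log2 fold change of -0.53 ± 0.20 (SE). DNAJC17, a J-protein of pre-mRNA splicing, had 186, 229, 179, 208 and 228 in control and 258, 261, 225, 285 and 263 in treated muscle, a change of 0.33 ± 0.12 (SE). DNAJC11, which helps to shape mitochondrial cristae, had 914, 1028, 702, 835 and 662 in controls and 543, 766, 559.7, 715 and 622 in treated animals, a change of -0.36 ± 0.15 (SE).

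DNAJA2, a class A partner of HSP70, had 2206, 2114, 2183, 2226 and 2189 in control muscle and 1866, 1882, 1529, 1625 and 2152 in treated muscle, a log2 fold change of -0.28 ± 0.12 (SE). Sheep 255 alone of the treated animals reached the control range. DNAJA3, its mitochondrial relative, had 1808, 1651, 1552, 1592 and 1483 in controls and 1026, 1701, 1386, 1228 and 1261 in treated animals, and DNAJB12, of the endoplasmic reticulum membrane, 638, 497, 589.7, 570.0 and 574 in controls and 453, 537, 349, 438 and 551 in treated animals. Their changes were -0.31 ± 0.13 (SE) and -0.32 ± 0.14 (SE). DNAJB1 went the other way, with 203, 309.6, 405, 254 and 259.8 in control and 414, 216, 480.5, 497 and 609.7 in treated muscle, a change of 0.59 ± 0.25 (SE). Of the treated muscles, 4 lay above every control and sheep 63 lay near the lowest control. The limma adjusted p-values of these 9 genes ran from 0.243 to 0.325. DNAJC27 and DNAJC15 stayed under an unadjusted p of 0.05 without each library in turn, while DNAJB1 did not without control sheep 98, 179 or 201 or treated sheep 48, 185, 233 or 255.

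**Figure D4:**
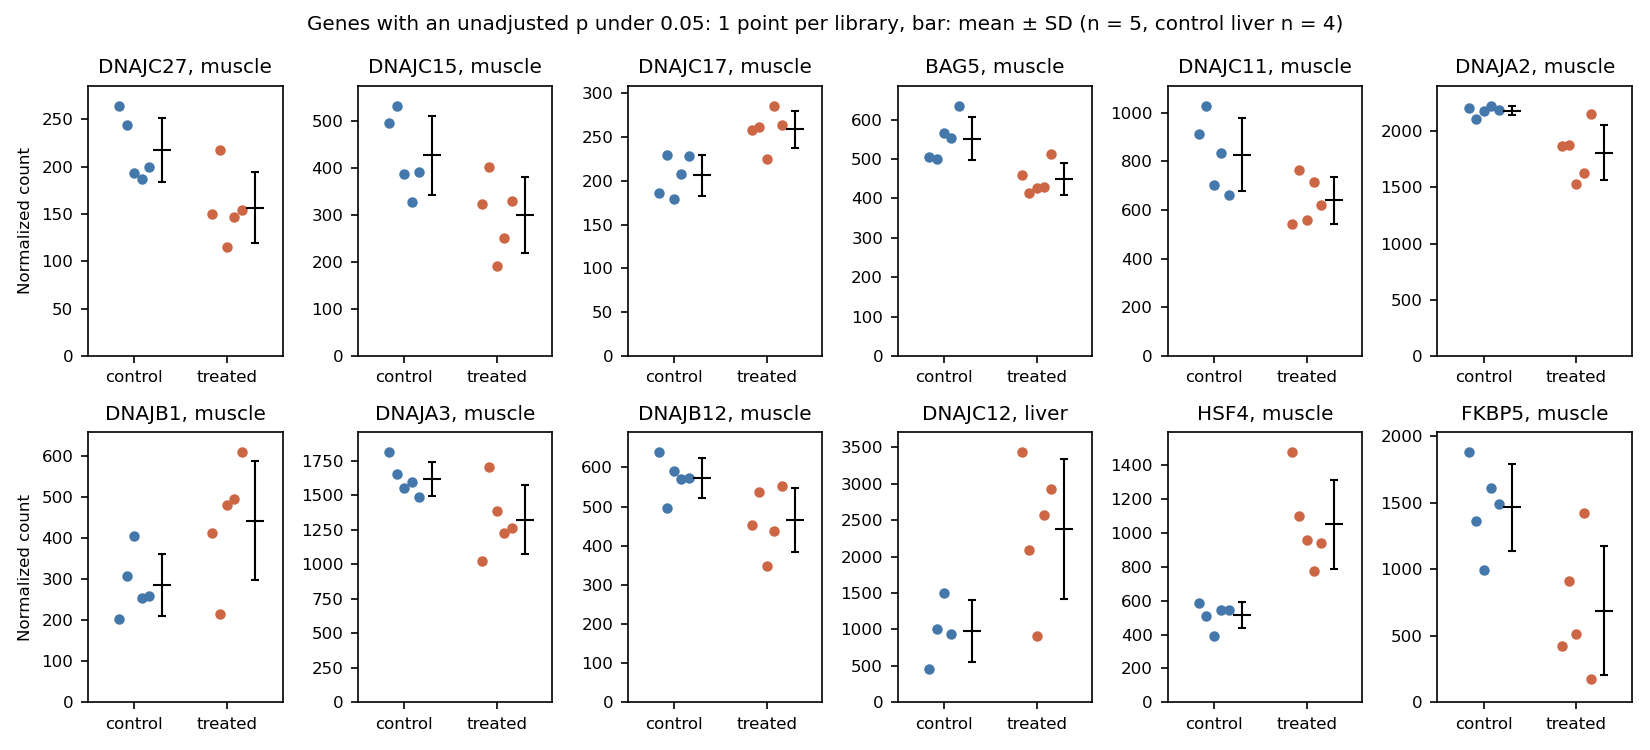
Normalized counts per library (n = 5 per group, 4 in control liver) for the 9 member genes at an unadjusted p under 0.05 in muscle, for DNAJC12 in liver, and for HSF4 and FKBP5 in muscle, with the mean and SD beside the points. The groups overlap in each panel except that of HSF4.

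Below 0 in treated muscle were 69.7% of the members and 51.6% of all genes. All 6 BAG genes were among them, with a median of -0.17, and 1 of the 6 had an unadjusted p under 0.05. This was BAG5, with 506, 499, 566, 553 and 634 in control and 459.7, 414, 425, 428 and 514 in treated muscle, a log2 fold change of -0.30 ± 0.11 (SE). BAG2 had 1091, 1078, 1451, 1247 and 1121 in controls and 904, 740.5, 882, 1064 and 1257 in treated animals, a change of -0.32 ± 0.15 (SE). BAG3 had 3244, 2756, 4020.1, 2848 and 3075 in controls and 3041, 3119, 3174, 2805 and 2628 in treated animals, a change of -0.10 ± 0.13 (SE). HSF1 had 943, 722, 1028, 879 and 824 in control and 788, 847, 972, 728 and 814 in treated muscle, and HSF2 had 372, 336, 306, 345 and 514 in controls and 354, 319.7, 340.2, 456 and 326 in treated animals. Their changes of -0.08 ± 0.12 (SE) and -0.05 ± 0.16 (SE) were smaller than their standard errors.

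Of the 6 small heat shock proteins in muscle, 4 were above 0 and 2 below, and none had an unadjusted p under 0.05. HSPB1 had 8144, 8246, 21129, 6644 and 9859 in control and 15717, 7647, 19398, 11994 and 20438 in treated muscle, a log2 fold change of 0.52 ± 0.32 (SE). Control sheep 132 was the highest of all 10 animals. Without that sheep the gene had an unadjusted p under 0.05, as it did without treated sheep 63. HSPB6 had 4953, 4981, 2966, 3034 and 3103 in controls and 2094, 3584, 4596, 5682 and 2582 in treated animals. HSPB7 had 4057, 4336, 2976, 2224 and 2707 in controls and 2871, 2768, 5793, 4829 and 2150.4 in treated animals, and HSPB2 517, 566, 404, 435 and 377 in controls and 505, 555, 705, 441 and 341 in treated animals. Treated sheep 185 was highest for HSPB2 and HSPB7 and sheep 233 for HSPB6, so the order of the animals differed between these genes. HSPB8 had 5302, 7808, 7528, 7282 and 7703 in control and 6749, 7442, 8001, 8647 and 6648 in treated muscle, a change of 0.08 ± 0.15 (SE).

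Among HSP70 and HSP110 genes, 9 of 13 were below 0 and none had an unadjusted p under 0.05. HSPA9 came first in order of p, with 7220.1, 7789, 6548, 6569 and 6356 in control and 4462, 7019.8, 4259, 5460.2 and 6962 in treated muscle and a log2 fold change of -0.32 ± 0.16 (SE). HSPA4 had 1382, 1845, 2181, 1423 and 1393 in controls and 1377, 1048, 1633, 1210.5 and 1572 in treated animals. HSPA8 had 1329, 2232, 2741, 1808 and 1719.9 in controls and 1543, 1372, 1761, 1789 and 2145 in treated animals, a change of -0.16 ± 0.18 (SE). HSPH1 had 567, 767, 2122, 837 and 1267 in controls and 1144, 591, 1753, 657 and 1439.8 in treated animals, which covered almost the same range in both groups. HSP90AA1 had 13568, 15832, 35102, 13479 and 16104 in control and 13913, 10565, 21469.8, 11841 and 21696 in treated muscle. HSP90AB1 had 10771, 8057, 13295, 9297 and 10649 in controls and 8406, 9171, 9817, 6252 and 13733 in treated animals, and HSPD1 68.5, 92, 213, 90.6 and 111 in controls and 56.8, 94.7, 118, 91.1 and 119 in treated animals. Sheep 132 was highest among controls for HSPH1, for both HSP90 genes and for HSPD1.

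Markers of muscle fibres and of other cells stood beside these values as follows. The summed normalized counts of 7 skeletal muscle markers ran from 1584910 to 1890800 in control and from 742398 to 1634120 in treated muscle, and all 7 had a log2 fold change below 0, none at an unadjusted p under 0.05. Adipocyte markers had 5 of 5 below 0, 3 of them at an unadjusted p under 0.05, with sums of 1328 to 2813 in control and 1103 to 2406 in treated muscle, and markers of T and NK cells had 5 of 5 above 0, 1 of them (LCK) at an unadjusted p under 0.05, with sums of 97.1 to 139 and 134 to 221. Endothelial markers had 4 of 4 below 0, smooth muscle markers 4 of 4, macrophage markers 2 of 3 and fibroblast markers 2 of 6. None of these had an unadjusted p under 0.05. Hepatocyte markers had 2 of 2 below 0 in muscle, 1 of them at an unadjusted p under 0.05. What part any of these cells had in the chaperone values was not tested.

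The effects of treatment in muscle and liver were also compared with each other, over 64 members. None passed the adjusted threshold by limma, edgeR or DESeq2, where 0.00855% of 11697 genes did by limma. At an unadjusted p under 0.05 there were 2 members by limma and DESeq2, DNAJC12 and BAG4, and 1 by edgeR, DNAJC12, against 4.9% of all genes. BAG4 had 276, 315, 334, 336 and 392 in control and 319, 270.3, 284, 239 and 361 in treated muscle, and the difference from its liver effect was -0.55 ± 0.25 (SE). With the sheep as a block, which pairs the tissues of each animal, 3 members had an unadjusted p under 0.05, DNAJC12, DNAJB1 and DNAJB5, and none passed the adjusted threshold. The count was 1 without sheep 48 or sheep 233 and 4 without sheep 179, and the shares of all genes in these fits are not given here.

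Partners of the set from outside the rule were taken from lists of chaperone partners. Of 17 listed HSP90 partners, 16 were tested in muscle, 0 of them higher and 3 lower at an unadjusted p under 0.05, and 15 in liver, with 0 in either direction, where 7.37% of all muscle genes were higher and 7% lower. The lower ones in muscle were FKBP5, UNC45B, a folding factor of myosin, and CDC37L1. FKBP5, the HSP90 partner that is induced by glucocorticoids and holds their receptor, had 1878, 1366, 993, 1609 and 1487 normalized counts in control and 427, 909, 515, 1423 and 177 in treated muscle, lower on the log2 scale at -1.38 ± 0.42 (SE). Its limma p was 0.00559 unadjusted and 0.195 adjusted. Of the treated animals, 4 lay below every control, with sheep 255 lowest, and sheep 233 lay within the control range. In liver FKBP5 had 140.3, 44.6, 128 and 23.4 in controls and 41.3, 43.5, 72.1, 147 and 17.3 in treated animals. HSP70 partners outside the rule had 0 of 10 at an unadjusted p under 0.05 in either tissue. The 8 subunits of the cytosolic chaperonin TRiC had 1 higher in muscle, CCT4, beside the same 7.37% of all genes, and 0 in liver.

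A list of other heat shock factors, their binding protein and crystallins had 3 of 5 tested members higher and 1 lower at an unadjusted p under 0.05 in muscle, where 7.37% of all genes were higher and 7% lower, and 0 of 5 in liver. HSF4, a heat shock factor that lacks the stress switch of HSF1 and is known for its role in the lens, had 587, 511, 388, 542 and 547 in control and 1472, 1099, 958, 776 and 938 in treated muscle. All 5 treated animals lay above all 5 controls. The log2 difference was 1.005 ± 0.17 (SE), and its limma adjusted p, 0.104, missed the threshold. In liver HSF4 had 44.6, 82.3, 25.7 and 63.4 in controls and 66, 69.5, 92.7, 55.7 and 70.4 in treated animals, which overlapped. HSBP1, which binds heat shock factors and is known to restrain HSF1, had 1382, 1592, 1275, 1278 and 1229 in control and 1123, 1052, 981, 1001 and 1146 in treated muscle, a change of -0.35 ± 0.11 (SE) without overlap and with a limma adjusted p of 0.2. HSF5 and SERPINH1, the collagen chaperone, were the other higher ones. CRYAB, the small heat shock protein alpha B crystallin, had 7054, 11588, 20773, 7674 and 9018 in controls and 13176, 5152, 16039, 10446 and 16009 in treated animals in muscle, a change of 0.13 ± 0.34 (SE), and 239, 219, 115 and 268 in controls and 136, 189, 331, 168 and 95.3 in treated animals in liver. The 6 endoplasmic reticulum chaperones tested had none at an unadjusted p under 0.05 in either tissue.

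Single animals stood out across many members. In liver, treated sheep 233 had the highest value of the 9 libraries in 20 of 67 members, 29.9%, while it was highest in 9.14% of all 13640 genes. These 20 were BAG1, BAG3, BAG5, DNAJA1, DNAJB1, DNAJB5, DNAJC2, DNAJC7, DNAJC21, HSP90AA1, HSP90AB1, HSPA1A, HSPA1L, HSPA4, HSPA6, HSPA8, HSPA14, HSPB8, HSPD1 and HSPH1. HSPA1A had 139, 68.8, 22.4 and 49 in control and 15.3, 17.4, 107, 185 and 15.2 in treated liver, so sheep 233 stood 5.19 times above the median of the other libraries, and control sheep 98 and treated sheep 185 were high as well. For HSPA6, another inducible HSP70, the ratio was 3.58, for HSPH1 2.56, for HSPA8 2.30, for HSP90AA1 1.87 and for BAG3 1.72. This animal and those named in muscle were singled out after the values were seen.

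In muscle, control sheep 132 was highest in 17 of 66 members, 25.8%, and in 9.83% of all 12966 genes. Its ratio to the median of the other muscles was 2.72 for HSPA4L, 2.54 for HSPH1, 2.52 for HSP90AA1, 2.32 for HSPD1, 2.14 for HSPB1, 1.97 for DNAJA4 and 1.56 for HSPA8. Control sheep 132 with treated sheep 185 and 255 held the 3 highest values for HSPH1, HSP90AA1, HSPB1, HSPD1 and HSPA1L, 5 of 66 members or 7.58%, against 1.04% of all genes. Because these 3 animals were picked after the values were seen, the excess is a description and no separate evidence. In the chaperone lists above, STIP1, AHSA1, FKBP4, CCT3, CRYAB and HSP90B1 had the same 3 animals at the top, and the other tested genes did not. STIP1, which passes clients from HSP70 to HSP90, had 1074, 1071, 3000.2, 1269 and 1373 in control and 1224, 1084, 1926, 1051 and 1849 in treated muscle, and AHSA1, an activator of HSP90, had 1203, 1392, 2678, 1424 and 1621 in controls and 1858, 1325, 2048, 1236 and 2076 in treated animals. One of the 3 animals was a control and the others were treated.

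Of the 67 members tested in liver, 8 had the same sheep highest in both tissues. The share over all genes was not computed, so this count is a description. Sheep 233, which had the highest HSPH1 of all livers, had 657 normalized counts of it in muscle, below 7 of the other 9 animals. Sheep 255, among the top animals in muscle, had the lowest HSPH1 of all livers, 233 counts. Sheep 132 gave no liver library. Sheep 233 was highest in both tissues for 4 of its 20 genes, HSPA6, DNAJA1, DNAJB5 and HSPB8. Among the muscle libraries, this sheep was highest in 12.9% of all genes. Its muscle had 81 reads of HSPA6 and 24 of DNAJA1, against at most 23 and 9 in any other muscle, and 651 normalized counts of DNAJB5 and 8647 of HSPB8, where the next had 452 and 8001. The others were DNAJA2 in sheep 179, DNAJC12 in sheep 48, DNAJC5 in sheep 98 and HSPB2 in sheep 185. HSPA1A in muscle had 224, 302, 395, 131 and 432 in control and 157, 121, 417, 417 and 212 in treated animals, with control sheep 201 highest. FOS, an immediate early gene, had 173, 1021, 1396, 764 and 312 in control and 363, 282, 282, 1056 and 109.7 in treated muscle, with sheep 132 highest and sheep 255 lowest, and 401, 806, 257 and 74.6 in controls and 144, 224, 250.4, 271 and 210.2 in treated animals in liver, with sheep 131 highest. Of the 17 immediate early genes tested in each tissue, 0 had an unadjusted p under 0.05. Read totals of sheep 132, 185 and 255 in muscle were 10239979, 14023181 and 10887587, within the range of the other libraries.

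**Figure D5:**
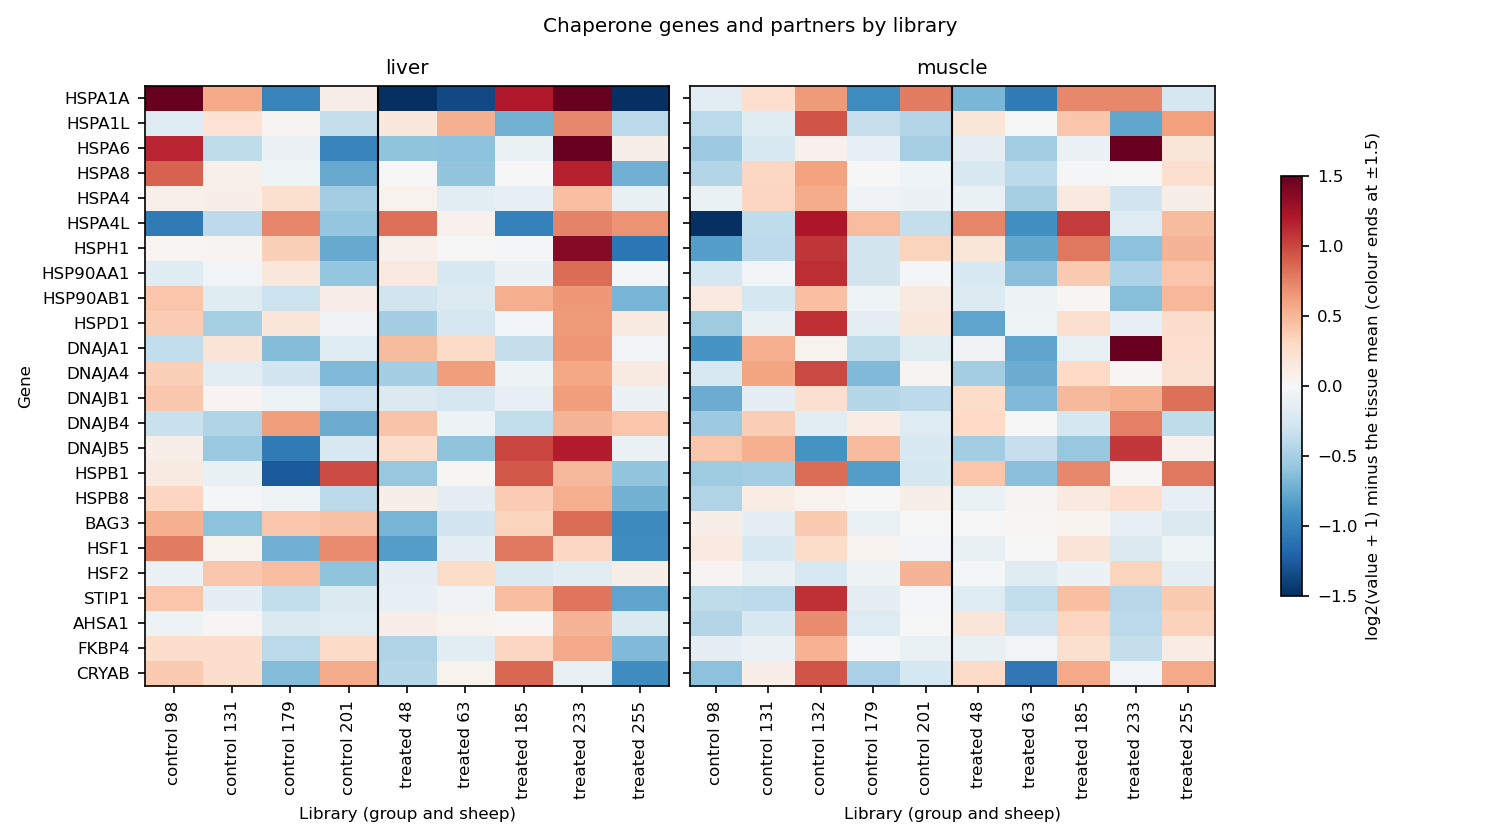
Deviation of log2(value + 1) from the tissue mean for chaperone genes and partners, 1 column per library, with controls left of the black line (liver n = 4 and 5, muscle n = 5 and 5). Red marks values above the mean and blue values below it. Most of the genes drawn are red in treated sheep 233 in liver and in control sheep 132 in muscle. The genes drawn followed no planned rule, and many of them are among those named in the text for these animals. The colours are therefore a description and add no separate evidence.

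The spread between animals of 1 group, as the residual SD on the log2 scale, had a median of 0.48 in liver and 0.26 in muscle over the members, and of 0.52 and 0.31 over all genes. HSPA1A had 1.47 in liver and 0.75 in muscle. HSPH1 had 0.73 and 0.71, HSPB1 0.79 and 0.62, and HSP90AA1 0.38 and 0.53. The highest in muscle was HSPA4L with 1.03, and in liver DNAJC6 with 2.09. At the other end in muscle were BAG5 with 0.13 and DNAJA2 and DNAJC17 with 0.14, while BAG3 had 0.17.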

How the data were processed

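RNA-seq was made from 19 libraries of liver and muscle. The deposited table holds read counts that the authors divided by a size factor within each tissue, a normalized signal per gene. The submitters' processing notes name Trimmomatic, STAR and featureCounts 1.6.1; the genome build, strand setting and treatment of shared reads are not given in the sources used here. Low values are whole multiples of what 1 read was worth, so reads were recovered, with 100.0% of values whole within 0.01 read. Totals are in the report, and intervals cover counting error only. In 36 pairs of libraries of 1 group, chi-square per degree of freedom was at least 21.0, so none was a repeat deposit.

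Within each tissue, log2(value + 1) of genes with a mean of at least 10 was tested between groups with limma 3.58.1 (trend; R 4.3.3), with Benjamini-Hochberg adjustment over all genes tested. A fold change on this scale understates that of low genes. The tissue effects were compared by an interaction term over all libraries, and control tissues on TMM-scaled CPM (counts scaled to a common total). edgeR 4.0.16 and DESeq2 1.42.0 on the recovered reads, other pseudocounts, filters, scalings and weights, the sheep as a block and leaving out each library were alternatives. The script was tested on simulated data. Same-numbered liver and muscle were taken to come from the same sheep. Over 11697 genes, the deviations of an animal's tissues correlated with a median r of 0.18 and a lowest of 0.10. Between animals the median was -0.02. For 7 of 9 sheep, the liver correlated best with the muscle of the same number.

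Genes given in every sample were the first 2 of each role in order of unadjusted p, fixed chaperones, the 6 largest tissue differences in each direction, HSF4, CRYAB and partners at an unadjusted p under 0.01. The remaining genes at an unadjusted p under 0.05, the genes of the animals that stood out, STIP1, AHSA1 and FOS were named after their values were seen. Members and lists were chosen with earlier results of these data known. No protein or promoter sequences were used here.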

Additional observations from a re-analysis of the deposited data

Results flagged for a closer look

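In 5 of 82 groups of 4 or 5 animals, 6.10%, 1 animal lay far from the rest by Dixon's 95% limit, which chance passes in about 1 group in 20. BAG3 in control liver was 376.7 normalized counts in sheep 131, where the other controls had 770 to 841. DNAJB1 in treated liver was 653 in sheep 233, where the others had 354 to 395. HSF2 in treated muscle was 456 in sheep 233, where the others had 319.7 to 354. HSP90AA1 in control muscle was 35102 in sheep 132, where the others had 13479 to 16104. HSPB8 in control muscle was 5302 in sheep 98, where the others had 7282 to 7808.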

How the results depend on the processing

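No called direction reversed, and no member passed the adjusted threshold for treatment under the alternatives run. The count of liver members at an unadjusted p under 0.05, 1, was 2 with no filter, 5 with array weights, and 1 to 4 with each library left out. The muscle count, 9, was 2 with all libraries in 1 fit and 4 to 12 with each library left out. The count for the difference between tissues, 2, was 1 with edgeR and with TMM rescaling, 3 with the sheep as a block, and 1 to 4 with each sheep left out. For these 3 counts, the shares of all genes under the alternatives are not given. The block moved the tissue calls from 29 and 7 to 28 and 8. Over genes with a mean of at least 10 in both tissues, chosen after seeing the data, they were 27 and 4. Tissue calls were gained by 5 genes, HSPH1, DNAJB6, DNAJC15, DNAJC1 and HSPA6, under at least 1 alternative. The median tissue difference, 0.59, was 0.75 with a mean of at least 50, 0.72 without TMM, 0.90 with the deposited values as they are, and 0.63 to 0.76 with each sheep left out; the median of all genes, -0.07, was 0.15 with the deposited values and 0.04 without TMM. The fitted tissue differences of genes near 0 reads in 1 tissue (HSPB3, HSPB7, DNAJC6, DNAJC22) depended on the pseudocount. The cause of the other shifts was not tested.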
